A study of Mus musculus with 24 samples.

Results

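The 8 genes described here encode the core of the dystrophin complex: Dmd, Utrn, Dag1, Sgca, Sgcb, Sgcd, Sspn and Sntb1. They were taken by name as 8 of the 23337 genes in a table of read counts from mouse cardiomyocytes, and all 8 passed the filter on low counts that left 12281 genes for testing. The complex spans the muscle cell membrane and ties the actin cytoskeleton to the basement membrane. Dystrophin binds actin and the inner end of dystroglycan, whose outer part is held by laminin, while the sarcoglycans and sarcospan brace this link in the membrane and the syntrophins and dystrobrevins dock signalling proteins beneath it. In the heart, loss of dystrophin or of a sarcoglycan leaves the membrane fragile under contraction and leads to cardiomyopathy.

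The libraries came from hearts in which transcriptional coactivators of serum response factor (Srf) were knocked out or edited, alone or combined. Myocardin (Myocd) and its relatives Mrtfa and Mrtfb bind Srf on CArG boxes, short DNA elements of muscle and cytoskeletal genes. An adeno-associated virus (AAV) was injected at postnatal day 1, and cardiomyocytes were taken at 4 weeks of age by perfusion of the heart and fluorescence-activated sorting, 6 libraries a group. Ctrl mice had the genotype Rosa-Cas9/Cas9 and received AAV-Cre; MKO mice had the same genotype and received AAV-Myocd-sgRNA. DKO mice were Mrfta-/- (the labels' spelling of Mrtfa), Mrtfb-F/F and Rosa-Cas9/Cas9 and received AAV-Cre, and TKO mice of that genotype received AAV-Myocd-sgRNA. All 4 groups therefore carried Cas9 and a virus. The promoter that drove Cre or the guide, and whether the guide virus also carried Cre, are not given in the sources used here. The labels do not state whether the 6 libraries per group are 6 animals, and the p-values speak only to spread among libraries, which may be technical.

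Of the 8 members, 7 matched the RefSeq promoter table (build GRCm38.p6), which gave 10 promoters of 300 bases each. A CArG box, read on both strands with an uninterrupted core of A and T, was found in 1 of these 10, that at the outermost start site of Dmd, against 1.63% of 32817 promoters in the table. The bases before that start site (chrX:82948620-82948869, plus strand, 250 bases) are shown because they hold the one match to the element that the targeted coactivators use through Srf. The capitals mark the CArG box, whose first base lies 98 bases before the start site.
Dmd: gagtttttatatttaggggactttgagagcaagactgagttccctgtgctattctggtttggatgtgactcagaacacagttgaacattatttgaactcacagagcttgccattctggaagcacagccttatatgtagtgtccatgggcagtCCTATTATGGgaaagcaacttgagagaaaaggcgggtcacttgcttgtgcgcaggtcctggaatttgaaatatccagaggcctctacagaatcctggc
An E-box (CANNTG, on both strands), the element of other muscle regulators, was present in 7 of the 10 promoters and in 72.3% of all promoters in the table. A match says only that these letters are present.

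Per kilobase of exon, the members fell into tiers whose order by mean level was the same in the 4 groups, except that Sntb1 stood above Dmd in MKO. In Ctrl, Dag1 stood highest at 171 to 272 CPM per kilobase (CPM is a gene's count divided by the scaled library total in M), followed by Sspn at 99.9 to 159. Sgca at 72.2 to 89.6 and Sgcb at 57.0 to 76.7 overlapped. Sgcd at 16.98 to 28.2, Dmd at 9.98 to 18.8 and Sntb1 at 8.07 to 12.7 formed a lower tier in which neighbours overlapped, and Utrn lay lowest at 2.80 to 5.37. These levels use the exon length of all annotated transcripts of a gene, which understates a gene read mainly from a short transcript.

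**Figure D1:**
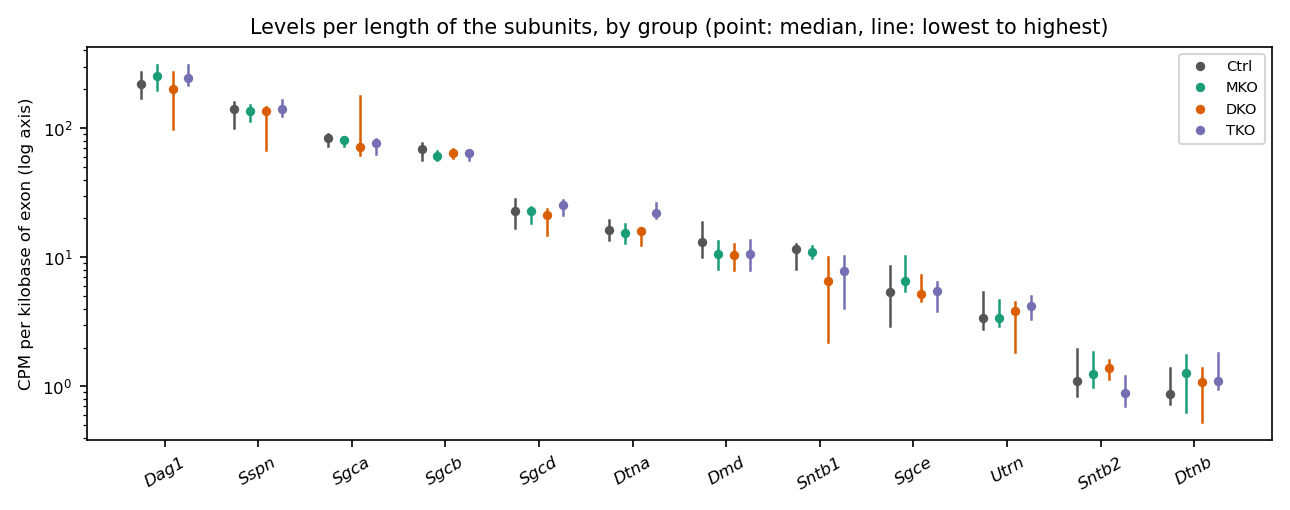
Levels per kilobase of exon (CPM, log axis) of the 8 members and 4 other subunits, with the median of 6 libraries as a point and the lowest to highest library as a line, coloured by group. Dag1 is highest and Dtnb and Sntb2 are lowest, and for most genes the 4 groups overlap.

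Total counts per library ran from 5830185 in DKO 1 to 17184517 in TKO 3. DKO 1 also stood apart in members of the complex: its Sgca was 301.8 CPM against 105.7 to 121.5 in the other 5 DKO libraries, its Sspn 301.2 against 571.7 to 647.8 and its Utrn 22.8 against 43.8 to 55.5. Tested genes with more than 8000 bases of exon, the members left out, took 2.73% of its counts, against 3.66 to 4.71% in the other 23 libraries. Ratios of the members that rest on DKO are therefore also given without DKO 1 and Ctrl 3, a setting closer to the deposited comparison tables than all 24 libraries. Mrtfa, listed as Mkl1, lay at 1.33 to 2.77 CPM in DKO and TKO and at 4.81 to 11.9 CPM in Ctrl and MKO, lower in the mutant genotype as labelled. Mrtfb, listed as Mkl2, lay at 26.6 to 42.5 CPM in DKO and TKO and at 44.1 to 59.2 CPM in Ctrl and MKO. Myocd lay at 119.8 to 187.0 CPM in MKO and 175.2 to 323.5 CPM in TKO, and at 152.7 to 242.2 CPM in Ctrl and DKO, but an edit by a guide need not lower counts. Srf lay at 69.4 to 96.6 CPM in Ctrl and 38.3 to 50.9 CPM in TKO, 2 groups that 8.15% of all genes separated wholly. In DKO it lay at 105.3 CPM in DKO 1 and at 52.0 to 63.6 CPM in the other 5 libraries. Myh6, the main motor of adult cardiomyocytes, had a median of 63571 CPM. RNA of other cell types was present too: all 10 endothelial, 10 fibroblast and 8 smooth muscle and pericyte markers and 6 of 10 leukocyte markers had reads in every library. Read from sex-linked transcripts, 4 Ctrl libraries, 4 MKO libraries, 3 TKO libraries and 1 DKO library were male.

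None of the 8 members passed an adjusted p of 0.05 when a mutant group was compared with Ctrl (edgeR's quasi-likelihood test with Benjamini-Hochberg adjustment over 12281 genes, here and for every adjusted p unless another tool is named). In TKO, 0 of 8 members were called while 14.1% of all tested genes were, in DKO 0 of 8 against 0.635%, and in MKO 0 of 8 against 0%. With DKO 1 left out of the fit, 1 member was called in TKO (Sntb1), beside 2808 of 12366 genes. At an unadjusted p under 0.05, 2 members differed in TKO (Dmd and Sntb1), 2 in DKO (the same 2 genes) and 1 in MKO (Dmd), where 27%, 10.5% and 6.2% of all genes did. With DESeq2 the counts of members called were 0, 1 and 0, and with voom (limma, with quality weights) 1, 1 and 0, and the called member was Sntb1 each time. Over all genes DESeq2 called 2118 genes in TKO, 162 in DKO and 1 in MKO, and voom 2644, 313 and 3. The median log2 ratio of the members was -0.03 in TKO, -0.12 in DKO and -0.02 in MKO, beside -0.01, 0.02 and 0.00 over all genes tested. In none of the 8 members did the 6 libraries of a mutant group lie wholly apart from the 6 Ctrl libraries, as 8.15% of all genes did in TKO, 0.993% in DKO and 0.586% in MKO. The 95% intervals of the 24 ratios to Ctrl lay between -1.17 and 0.55, so changes of that size are not excluded. In such bulk libraries fewer cells of a type and less RNA per cell cannot be told apart.

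**Figure D2:**
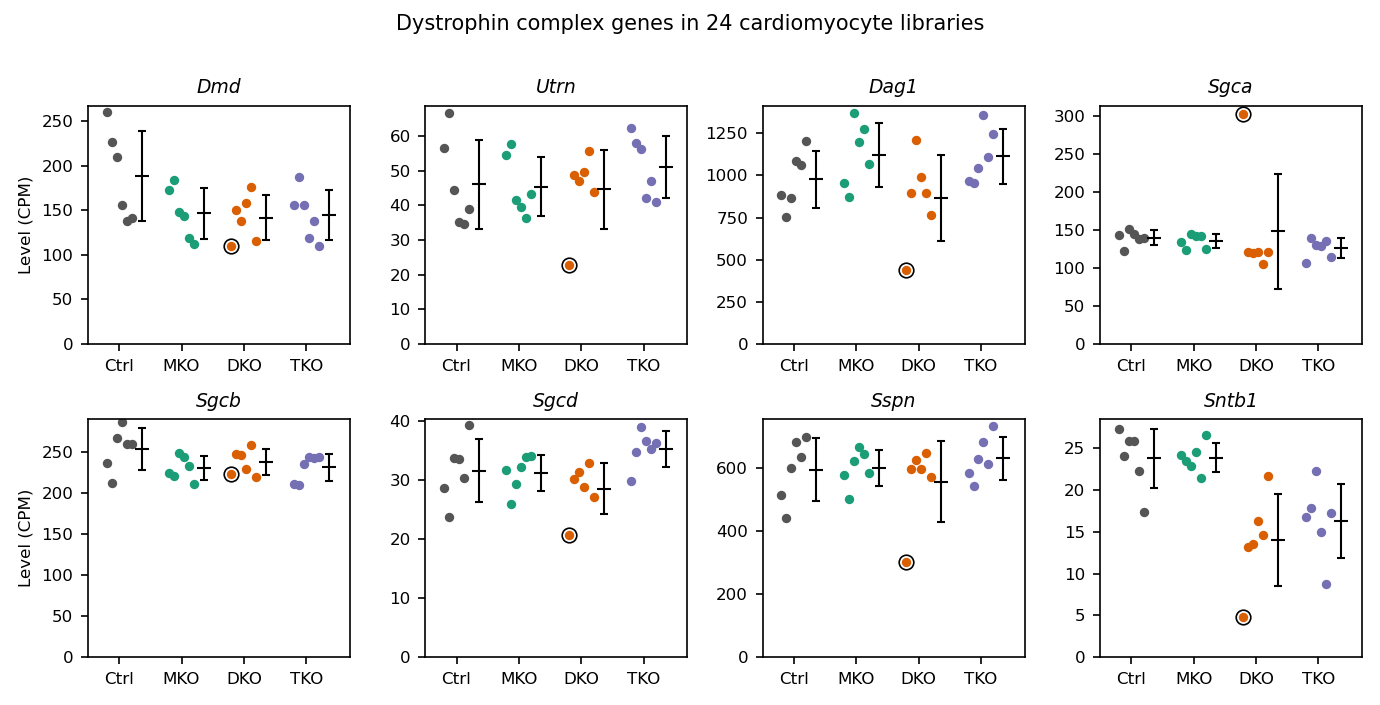
CPM of the 8 members in each of the 24 libraries by group (points), with the mean and SD over 6 libraries beside them; the circled point is DKO 1. Sntb1 is lower in most DKO and TKO libraries than in Ctrl and MKO, 3 Ctrl libraries are highest for Dmd, and DKO 1 stands apart for Sgca, Sspn and Utrn.

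Dmd (chromosome X, 82948870 to 85205050 in mm10) encodes dystrophin, the rod that joins actin to dystroglycan. In Ctrl it ran from 138.2 to 260.0 CPM with a median of 183.0, and in MKO from 112.1 to 184.0 with a median of 145.8. DKO spanned 110.5 to 176.8 (median 144.3) and TKO 110.3 to 187.4 (median 146.7). The 3 highest libraries of all were Ctrl 1, 2 and 3, and the other 3 Ctrl libraries lay within the ranges of the mutants. All 6 libraries of each mutant group lay below the Ctrl mean. The log2 ratio to Ctrl was -0.36 ± 0.17 (standard error) in MKO, -0.41 ± 0.17 in DKO and -0.39 ± 0.17 in TKO, with adjusted p = 0.772, 0.377 and 0.13. The intervals were -0.71 to -0.02, -0.76 to -0.07 and -0.73 to -0.04. These 3 ratios share the Ctrl libraries. Without DKO 1 and Ctrl 3 the ratio was -0.33 in DKO (adjusted p = 0.563). Between the mutant groups the ratios of Dmd were -0.05 to 0.03. Dmd is X-linked, and with sex as a covariate it was called in none of the 3 comparisons.

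Utrn (chromosome 10, 12382188 to 12861735) encodes utrophin, the autosomal relative of dystrophin, which can take its place at the membrane. It lay at 34.7 to 66.5 CPM in Ctrl (median 41.6), 36.2 to 57.5 in MKO (median 42.3), 22.8 to 55.5 in DKO (median 47.9) and 41.0 to 62.2 in TKO (median 51.5). The 4 ranges overlapped widely. The log2 ratio to Ctrl was 0.15 ± 0.18 in TKO (adjusted p = 0.64, interval -0.22 to 0.53), -0.04 ± 0.18 in DKO and -0.02 ± 0.18 in MKO. Without DKO 1 and Ctrl 3 the DKO ratio was 0.07. Within a library, the ratio of Utrn to Dmd per length does not depend on library scaling. The Ctrl mean was 0.275 ± 0.037 (SD, n = 6), below the means of MKO (0.349 ± 0.044), DKO (0.350 ± 0.064) and TKO (0.398 ± 0.034). The TKO libraries, from 0.346 to 0.447, all lay above the Ctrl libraries, from 0.237 to 0.328, whereas MKO and DKO overlapped both. Divided by Dmd in the same way, 5.45% of all other tested genes separated TKO from Ctrl and 5.21% were higher in every TKO library (Utrn among them). The ratio was not tested.

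Dag1 (chromosome 9, 108205958 to 108263736) encodes dystroglycan, the receptor for laminin. It ran from 755 to 1203 CPM in Ctrl (median 973), 869 to 1367 in MKO (median 1130), 437 to 1208 in DKO (median 895) and 952 to 1358 in TKO (median 1077). The lowest value was that of DKO 1, and without it DKO spanned 766 to 1208 CPM. The log2 ratio to Ctrl was 0.20 ± 0.17 in MKO (interval -0.15 to 0.55), -0.17 ± 0.17 in DKO (-0.52 to 0.18) and 0.19 ± 0.17 in TKO (-0.16 to 0.54). The ratio of TKO to DKO was 0.36 ± 0.17 (adjusted p = 0.202) and that of DKO to MKO -0.37 ± 0.17 (adjusted p = 0.306). Without DKO 1 and Ctrl 3 these 2 ratios were 0.24 and -0.23, and that of DKO to Ctrl was -0.08. With sex as a covariate they were 0.52 (adjusted p = 0.0251) and -0.59 (adjusted p = 0.0355). DKO 1 was the only male DKO library, so that fit compares sexes within DKO through 1 library.

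The sarcoglycans form a tetramer beside dystroglycan. Sgca (chromosome 11, 94962822 to 94976327) lay at 122.3 to 151.7 CPM in Ctrl (median 141.2), 123.6 to 144.8 in MKO (median 137.4), 105.7 to 301.8 in DKO (median 121.0) and 106.1 to 139.9 in TKO (median 129.2). All 5 DKO libraries other than DKO 1 lay below the lowest Ctrl library, with a mean of 117.6 CPM against 139.7 in Ctrl, while TKO overlapped Ctrl. The share of all genes that separate these 5 libraries from Ctrl was not counted. With all 6 DKO libraries 0.993% of all genes separated. The log2 ratio of DKO to Ctrl was 0.08 ± 0.18 with DKO 1 (adjusted p = 0.918) and -0.24 ± 0.08 without DKO 1 and Ctrl 3 (adjusted p = 0.203). In TKO it was -0.15 ± 0.18 (interval -0.51 to 0.21) and in MKO -0.05 ± 0.18 (-0.41 to 0.31).

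Sgcb (chromosome 5, 73632749 to 73647731) had the smallest standard errors. It ran from 212.3 to 286.0 CPM in Ctrl (median 259.5), 210.6 to 248.4 in MKO (median 228.7), 219.1 to 258.6 in DKO (median 237.9) and 210.2 to 244.2 in TKO (median 238.8). The mutant groups overlapped Ctrl, although all 6 MKO and all 6 TKO libraries lay below the Ctrl mean. Its log2 ratio to Ctrl was -0.14 ± 0.08 in MKO, -0.10 ± 0.08 in DKO and -0.13 ± 0.08 in TKO, with intervals from -0.29 to 0.06 over the 3 comparisons and adjusted p = 0.773, 0.694 and 0.261. Without DKO 1 and Ctrl 3 the DKO ratio was -0.08.

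Sgcd (chromosome 11, 46978783 to 47379302), which forms the core of the tetramer with Sgcb, lay at 23.8 to 39.4 CPM in Ctrl (median 32.0), 26.0 to 34.1 in MKO (median 32.0), 20.8 to 33.0 in DKO (median 29.6) and 29.9 to 39.0 in TKO (median 35.8). Of the 6 TKO libraries 5 lay above the highest DKO library and 5 above the highest MKO library. The log2 ratio of TKO to DKO was 0.30 ± 0.11 (adjusted p = 0.109, interval 0.07 to 0.53), and that of TKO to Ctrl 0.16 ± 0.11 (adjusted p = 0.388). With sex as a covariate TKO exceeded DKO by 0.35 (adjusted p = 0.0473), and without DKO 1 and Ctrl 3 the ratio was 0.24 (adjusted p = 0.142).

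Sspn (chromosome 6, 145934147 to 145965225) encodes sarcospan, a membrane protein held by the sarcoglycans. It ran from 440.6 to 699.5 CPM in Ctrl (median 616.6), 503.4 to 666.0 in MKO (median 603.7), 301.2 to 647.8 in DKO (median 597.1) and 543.5 to 733.7 in TKO (median 621.4). The medians lay close together and DKO 1 lay below the 23 other libraries. The log2 ratio to Ctrl was 0.01 ± 0.14 in MKO (interval -0.28 to 0.30), -0.10 ± 0.14 in DKO (-0.39 to 0.19) and 0.08 ± 0.14 in TKO (-0.21 to 0.37). Without DKO 1 and Ctrl 3 the DKO ratio was 0.02.

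Sntb1 (chromosome 15, 55639154 to 55906949) encodes beta-1 syntrophin, an adaptor that binds dystrophin and carries signalling proteins. It lay at 17.4 to 27.3 CPM in Ctrl (median 24.9) and 21.4 to 26.5 in MKO (median 23.8). In DKO it lay at 4.8 to 21.6 CPM (median 14.1) and in TKO at 8.8 to 22.2 (median 16.98). Of the 6 DKO libraries 5 lay below every Ctrl library, and 4 of 6 TKO libraries did. Ctrl and MKO overlapped, and most libraries of DKO and TKO lay lower. Without DKO 1 the DKO libraries ran from 13.1 to 21.6 CPM. Its counts ran from 24 in DKO 1 to 378 in TKO 3.

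The log2 ratio of Sntb1 to Ctrl was 0.01 ± 0.21 in MKO (adjusted p = 0.996, interval -0.42 to 0.44), -0.73 ± 0.21 in DKO (adjusted p = 0.15, interval -1.17 to -0.30) and -0.54 ± 0.21 in TKO (adjusted p = 0.0903, interval -0.97 to -0.10). Against MKO it was -0.74 ± 0.21 in DKO (adjusted p = 0.108) and -0.54 ± 0.21 in TKO (adjusted p = 0.0845). Without DKO 1 and Ctrl 3 the ratio of DKO to Ctrl was -0.57 (adjusted p = 0.164). The calls changed when single libraries were left out, also through the spread that the fit shares over groups. Without DKO 1, which is in neither comparison, TKO to Ctrl stayed at -0.54 with a smaller standard error of 0.155 (adjusted p = 0.0136). TKO to MKO was then -0.53 (adjusted p = 0.0159). Without TKO 3, TKO to Ctrl was -0.65 (adjusted p = 0.0423). Without DKO 6, DKO to MKO was -0.90 (adjusted p = 0.0388). DESeq2 gave -0.75 for DKO against Ctrl (adjusted p = 0.0323), and voom gave -0.61 for DKO (adjusted p = 0.0374) and -0.58 for TKO against Ctrl (adjusted p = 0.0156). The ratio of TKO to DKO was 0.20 ± 0.21 (adjusted p = 0.586, interval -0.24 to 0.63), and it was 0.05 ± 0.17 without DKO 1 and Ctrl 3 (adjusted p = 0.877).

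Both groups with mutant Mrtf genes were then set against both groups with intact ones, a comparison chosen after the values were seen. Sntb1 fell by 0.64 ± 0.15 (log2) between those pairs of groups (adjusted p = 0.0057, interval -0.95 to -0.33). It was the 1 of 8 members called, beside 10.8% of all genes tested, and 4.75% of all genes fell. It was also the 1 member at an unadjusted p under 0.05, beside 26.2% of all genes. Its ratio was -0.55 (adjusted p = 0.00219) without DKO 1 and Ctrl 3, and over the 8 other settings the adjusted p lay between 0.0003 and 0.00722. Sntb1 lies on the same chromosome as Mrtfa, 25.11 Mb away, so DNA linked to the Mrfta-/- allele and the loss of Mrtfa cannot be told apart. In the same comparison 1 of 8 smooth muscle and pericyte markers (Abcc9), 0 of 10 endothelial markers, 0 of 9 fibroblast markers and 2 of 12 cardiomyocyte markers (Myh6 and Atp2a2) fell. The median log2 ratio was -0.59 over the smooth muscle and pericyte markers, 5 of 8 of which had an unadjusted p under 0.05, and -0.52 over the endothelial markers, 4 of 10 of which did. It was -0.20 over the fibroblast markers and -0.02 over the cardiomyocyte markers. The summed smooth muscle and pericyte markers were 488.4 to 856.2 CPM (Ctrl), 668.9 to 876.6 CPM (MKO), 206.3 to 652.4 CPM (DKO) and 427.4 to 695.5 CPM (TKO), with Myh11 between 2.29 and 22.6 CPM. Over all libraries Abcc9 alone had a median of 440.1 CPM, beside 634.8 CPM for this sum, so the sum mostly reflects Abcc9. The other markers of the list had medians from 5.89 (Myh11) to 46.0 CPM (Cspg4). The summed cardiomyocyte markers were 140693 to 176322 CPM (Ctrl), 124401 to 154861 CPM (MKO), 122920 to 140613 CPM (DKO) and 109993 to 136283 CPM (TKO). The part of these cell types in the result was not tested. For the other 7 members the pooled ratio lay between -0.22 (Dmd, adjusted p = 0.249) and 0.07 (Utrn, adjusted p = 0.784). Sgca stood at -0.01 ± 0.12 in this comparison (adjusted p = 0.965) and was called lower at -0.18 ± 0.05 without DKO 1 (adjusted p = 0.0227) and at -0.17 ± 0.05 by voom (adjusted p = 0.0309).

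**Figure D3:**
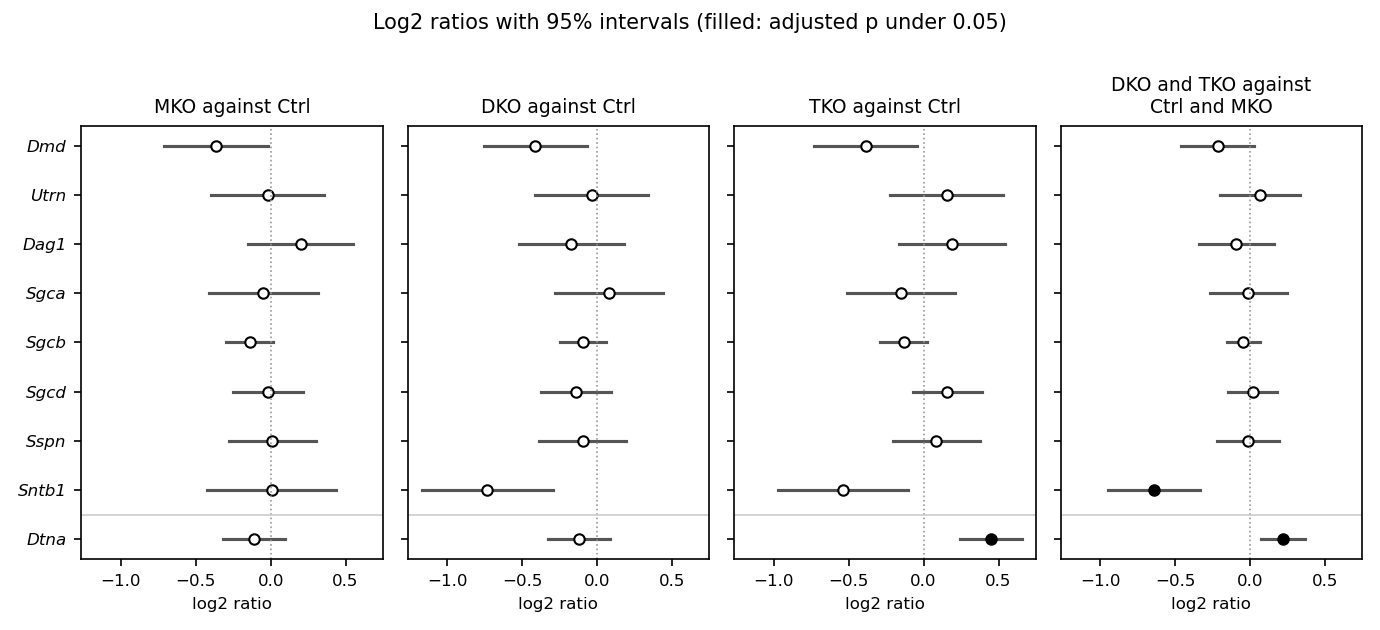
Log2 ratios (points) with 95% intervals (lines) of the 8 members and, under the grey line, of Dtna, for each mutant group against Ctrl and for DKO and TKO together against Ctrl and MKO; filled points passed an adjusted p of 0.05. Of the 8 members Sntb1 alone is filled, in the last panel, while Dtna is filled there, in a call lost in most fits without 1 library, and in TKO against Ctrl.

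No member was called between the mutant groups either. In TKO against DKO, 0 of 8 members were called beside 6.38% of all genes, in TKO against MKO 0 of 8 beside 13.3% and in DKO against MKO 0 of 8 beside 0.79%. At an unadjusted p under 0.05 the members were Dag1 and Sgcd in the first, Sntb1 in the second, and Dag1 and Sntb1 in the last, beside 23.5%, 27.9% and 15.3% of all genes. No member separated 2 mutant groups completely, while 3.53%, 9.71% and 1.8% of all genes did in these 3 comparisons. The interaction asks whether the guide virus acted differently in the 2 genotypes, as TKO minus DKO less MKO minus Ctrl. It called 0 of 8 members beside 0.464% of all genes, and 0 members had an unadjusted p under 0.05 beside 12.4%. By DESeq2 and by voom 0 members were called for the interaction and for TKO against DKO. In TKO against MKO the counts were 0 and 1, and in DKO against MKO 1 and 1, each time Sntb1. Over all genes DESeq2 called 191 for the interaction, 1151 in TKO against DKO, 2062 in TKO against MKO and 243 in DKO against MKO. Voom called 762, 1561, 3202 and 530 of 12281 genes in the same order. The largest interaction values of the members were 0.39 ± 0.24 for Dmd (interval -0.10 to 0.88) and 0.32 ± 0.16 for Sgcd (-0.01 to 0.64), and without DKO 1 and Ctrl 3 they were 0.32 and 0.26.

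Of 4 other subunits of the complex that were tested and are reported here, 1 rose in TKO against Ctrl (Dtna), none fell, and 3 did not pass the test, where 14.1% of all genes were called. Their median log2 ratio was 0.14, beside -0.01 over all genes. DESeq2 called 2 genes of this list, as did the fit with no filter on low counts, which tests the weakly expressed genes too. Dtna encodes alpha-dystrobrevin, which binds dystrophin and the syntrophins. It lay at 89.2 to 129.3 CPM in Ctrl (median 107.6), 85.3 to 119.2 in MKO (median 102.0) and 82.8 to 110.8 in DKO (median 104.8). All 6 TKO libraries, at 133.7 to 174.4 CPM (median 146.4), lay above the 18 others. Of all genes, 8.15% separated TKO wholly from Ctrl, 3.53% from DKO and 9.71% from MKO. Dtna rose by 0.45 ± 0.10 in TKO against Ctrl (adjusted p = 0.00327), by 0.57 ± 0.10 against DKO (adjusted p = 0.000822) and by 0.56 ± 0.10 against MKO (adjusted p = 0.00053). In DKO and MKO its ratios to Ctrl were -0.12 ± 0.10 and -0.11 ± 0.10. The interaction was 0.68 ± 0.14 (adjusted p = 0.0346), so the difference between the effects of the guide virus in the 2 genotypes passed the test. The call did not survive leaving out Ctrl 3, Ctrl 4, Ctrl 6, MKO 1, MKO 2, DKO 2, DKO 5, DKO 6, TKO 3 or TKO 4 in turn (0.63 to 0.69, adjusted p = 0.0503 to 0.0699). The cardiomyocyte markers moved in the same comparison: 4 of 12 (Myh6, Myl3, Ttn and Atp2a2) fell in TKO against Ctrl, and their sum ran from 109993 to 136283 CPM in TKO and 140693 to 176322 in Ctrl. Their part in the rise of Dtna was not tested. In the pooled comparison of the Mrtf genotypes Dtna rose by 0.22 ± 0.07 (adjusted p = 0.0482). That call was lost in 16 of 24 fits without 1 library (all but Ctrl 3, Ctrl 4, MKO 3, DKO 1, DKO 5, DKO 6, TKO 1 and TKO 5, adjusted p = 0.0507 to 0.0894), with RLE size factors (adjusted p = 0.0544), with no filter (adjusted p = 0.079) and with sex as a covariate (adjusted p = 0.0965).

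In the main fit the other 3 were not called in any comparison with Ctrl. Sntb2 encodes beta-2 syntrophin, and its log2 ratio in TKO was -0.37 ± 0.19 (adjusted p = 0.217, interval -0.77 to 0.02). The authors' deposited DESeq2 tables gave Sntb2 -0.55 in TKO over DKO (adjusted p = 0.0354) and -0.51 in TKO over MKO (adjusted p = 0.0417). Of all genes with an adjusted p there, 1519 of 13238 and 3021 of 14539 lay under 0.05. In the main fit here none of these 3 was called in those comparisons. By voom 2 of the 4 tested subunits were called in each, beside 1561 and 3202 of 12281 genes. With the replicate block 2 were called in each, beside 908 and 1834 genes. With sex as a covariate 2 were called in TKO against DKO, beside 1233 genes. Dtna was among the 2 in these fits, so the other was among these 3. Without Ctrl 3 and DKO 1, 2 were called in TKO against MKO, beside 2892 genes. Sgce, the sarcoglycan found in many tissues, stood at -0.01 ± 0.21, and Dtnb, beta-dystrobrevin, at 0.28 ± 0.25. Per kilobase of exon Sntb2 in Ctrl averaged 1.21 ± 0.40 CPM (SD, n = 6), against 11.02 for Sntb1. Sgcz had no read in any library, and Sntg1, Sntg2 and Drp2 had at most 14 reads in a library and were not tested.

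**Figure D4:**
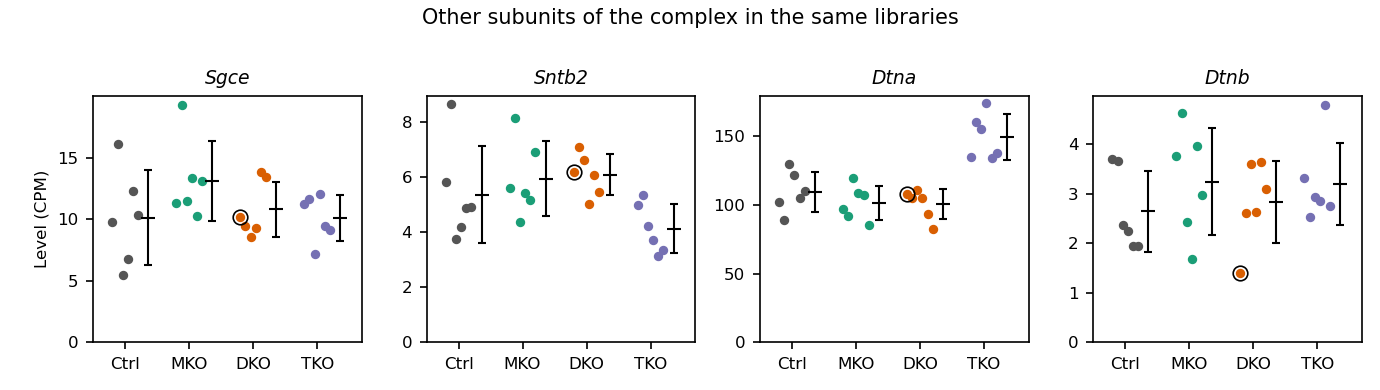
CPM of 4 other subunits in each library by group (points), with the mean and SD over 6 libraries; the circled point is DKO 1. Every TKO library of Dtna lies above all other libraries. Of all genes, 8.15% separate TKO wholly from Ctrl, 3.53% from DKO and 9.71% from MKO.

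Dystroglycan binds laminin only after its outer part has been glycosylated. Of 15 tested genes of this pathway 1 rose in TKO against Ctrl, none fell and 14 did not pass the test, where 14.1% of all genes were called. Their median log2 ratio was -0.13. Dpm3, a subunit of the enzyme that makes the mannose donor, rose by 0.57 ± 0.15 (adjusted p = 0.00899). It is weakly expressed, at 2.68 to 4.26 CPM in Ctrl and 4.36 to 5.99 CPM in TKO. These ranges did not overlap, as for 8.15% of all genes. In DKO and in MKO 0 of 15 were called, beside 0.635% and 0% of all genes. At an unadjusted p under 0.05 there were 1 and 2, beside 10.5% and 6.2% of all genes.

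Among 11 tested matrix ligands and basement membrane genes 2 rose, 1 fell and 8 did not pass in TKO against Ctrl, with a median of 0.04. Of all genes 14.1% were called there. Lama5, the laminin alpha-5 chain, lay at 94.9 to 130.2 CPM in Ctrl and 145.0 to 204.4 in TKO and rose by 0.70 ± 0.14 (adjusted p = 0.00101). It also rose against DKO (0.79 ± 0.14, adjusted p = 0.000835) and MKO (0.62 ± 0.14, adjusted p = 0.00393). Agrn, the ligand agrin, rose by 0.59 ± 0.20 (adjusted p = 0.0468), a call lost in 13 of 24 fits with 1 library left out, namely Ctrl 3, Ctrl 4, Ctrl 5, Ctrl 6, MKO 1, DKO 2, DKO 3, DKO 4, DKO 6, TKO 1, TKO 2, TKO 4 and TKO 5 (0.47 to 0.62, adjusted p = 0.0523 to 0.133). Hspg2, the heparan sulphate proteoglycan perlecan, fell by 0.59 ± 0.17 (adjusted p = 0.0191), and its ratio was -0.47 without Ctrl 2 (adjusted p = 0.0558) and -0.49 without TKO 4 (adjusted p = 0.051). For markers of vessel cells, the median log2 ratio in TKO against Ctrl was -0.74 over 10 endothelial markers, of which 0 were called and 2 had an unadjusted p under 0.05, and -0.61 over 8 smooth muscle and pericyte markers, of which 1 rose (Cspg4) and none fell. Their part in the fall of Hspg2 was not tested. Lama2, the chain of the main muscle laminin, had a ratio of 0.09 ± 0.17 (interval -0.25 to 0.44). Against MKO, Nid1 (nidogen) fell by 1.36 ± 0.41 in TKO (adjusted p = 0.0305), a call lost without MKO 2 or 6 or TKO 3, 5 or 6 (-1.36 to -1.13, adjusted p = 0.0532 to 0.0813). In that comparison 6 of 10 endothelial and 6 of 8 smooth muscle and pericyte markers fell as well, and the pericyte marker Cspg4 rose, where 13.3% of all genes were called. Summed endothelial markers ran from 138.0 to 528.5 CPM in TKO and 533.6 to 1193 in MKO, all 10 were detected in every library, and their part in the fall of Nid1 was not tested.

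Among 18 tested partners in the cytoplasm and the membrane 2 rose, 1 fell and 15 did not pass in TKO against Ctrl, with a median of 0.07. Of all genes 14.1% were called there. Synm encodes synemin, an intermediate filament protein that binds dystrophin and utrophin. It was low in Ctrl, at 0.995 to 2.68 CPM, and higher in every TKO library, at 4.18 to 7.64 CPM, a rise of 1.85 ± 0.26 (adjusted p = 2.19e-05). Of all genes 8.15% separated these 2 groups wholly. It rose in TKO against DKO by 1.01 ± 0.25 (adjusted p = 0.0129), a call lost in a fit of DKO and TKO alone (adjusted p = 0.0661), and against MKO by 1.38 ± 0.25 (adjusted p = 0.00051). Ank3, ankyrin-G, which anchors dystrophin at the membrane, lay at 105.8 to 142.3 CPM in Ctrl and 161.0 to 212.8 in TKO and rose by 0.52 ± 0.12 (adjusted p = 0.00517). It rose by 0.59 ± 0.12 against DKO (adjusted p = 0.00371) and by 0.63 ± 0.12 against MKO (adjusted p = 0.00122). Dysf, dysferlin, which reseals torn membrane, fell by 0.43 ± 0.14 (adjusted p = 0.0451). That call was lost without any 1 of the Ctrl libraries, MKO 1, 2 or 6, DKO 3 or TKO 1, 4 or 5 (-0.45 to -0.34, adjusted p = 0.0505 to 0.113). In TKO against DKO 4 of the 18 rose (Ank3, Synm, Flnc and Actn2), beside 6.38% of all genes called, and in a fit of DKO and TKO alone 1 was called. Flnc was also lost in 5 fits without 1 library (DKO 2, DKO 6, TKO 1, TKO 3 or TKO 6, adjusted p = 0.066 to 0.0863) and Actn2 in 2 (DKO 2 or TKO 3, adjusted p = 0.0532 to 0.0534). In DKO and MKO against Ctrl no gene of these 3 lists or of the other subunits was called, beside 0.635% and 0% of all genes. At an unadjusted p under 0.05, 4 of their 48 tested genes were found in DKO and 3 in MKO, beside 10.5% and 6.2% of all genes. DESeq2 called 0 of the 48 in both, and voom called 1 partner in DKO and 0 in MKO.

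From library to library within a group, the members did not move as a block. Deviations of log2 CPM from the group mean were compared over 24 libraries for all 28 pairs, with 100000 permutations within groups and Benjamini-Hochberg adjustment over the 28. Dmd and Utrn varied together (Pearson r = 0.81, adjusted p = 0.00014, Spearman rho = 0.85, adjusted p = 0.00028, r = 0.79 without the 2 libraries farthest from the median of Dmd). Dag1 and Sspn did likewise (r = 0.90, adjusted p = 0.00014, rho = 0.82, adjusted p = 0.00028, r = 0.84 without the 2 farthest), and so did Sgcd and Sspn (r = 0.84, adjusted p = 0.00049, rho = 0.73, adjusted p = 0.0014, r = 0.71 without the 2 farthest). In all, 8 pairs passed, 7 of them positive, and the negative one, Utrn and Sgca (r = -0.71, adjusted p = 0.0218, rho = -0.52, adjusted p = 0.0456, r = -0.44 without the 2 farthest), did not hold without DKO 1 (r = -0.41 over 23 libraries, adjusted p = 0.1345).

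Without DKO 1, 13 of 28 pairs passed, 7 positive and 6 negative, and the negative pairs set Dmd against Dag1 and Sspn, and Utrn against Dag1, Sgcb, Sgcd and Sspn. By Spearman 10 of the 28 passed. Utrn and Sspn reached r = -0.84 over 23 libraries (adjusted p = 0.00049, rho = -0.83, adjusted p = 0.0007, r = -0.75 without the 2 farthest), against r = 0.08 with DKO 1. Utrn and Dag1 reached r = -0.75 (adjusted p = 0.000784, rho = -0.75, adjusted p = 0.00118, r = -0.66 without the 2 farthest). Dmd and Sspn reached r = -0.68 (adjusted p = 0.00847, rho = -0.67, adjusted p = 0.0114, r = -0.65 without the 2 farthest). Sgcb and Sspn were related positively (r = 0.82, adjusted p = 0.00042, rho = 0.79, adjusted p = 0.000653, r = 0.72 without the 2 farthest). These values share libraries, depth and scaling, and Dmd and Utrn are by far the longest members. In Ctrl, MKO and TKO, Dmd and Utrn lay above the group mean in replicates 1 and 2 and below it in replicates 4 to 6. Dag1 and Sspn lay below it in replicates 1 and 2 and above it in replicate 4. DKO did not show this order. Permutation within groups treats libraries as exchangeable, so the p-values of the pairs do not account for such an order. The share of counts in tested genes over 8000 bases leaves out the members. It followed Utrn (r = 0.84, adjusted p = 0.00072 over 24 relations with library measures, rho = 0.80, adjusted p = 0.00144, r = 0.73 without the 2 farthest). Without DKO 1 that relation was r = 0.73 (adjusted p = 0.0122, rho = 0.71, adjusted p = 0.0295). The same share ran against Sgca (r = -0.87, adjusted p = 0.017, rho = -0.62, adjusted p = 0.0431, r = -0.49 without the 2 farthest), which without DKO 1 was r = -0.41 (adjusted p = 0.0912). For Dmd it was r = 0.53 (adjusted p = 0.017, rho = 0.55, adjusted p = 0.0577) and 0.60 without DKO 1 (adjusted p = 0.0509). The summed cardiomyocyte markers followed Dag1 (r = 0.54), Sgcb (0.60), Sgcd (0.58) and Sspn (0.49), with adjusted p = 0.017 to 0.0224 for r, adjusted p = 0.0431 to 0.0865 for rho and adjusted p = 0.0509 for r of each without DKO 1. The part of these library measures in the pairs was not tested.

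**Figure D5:**
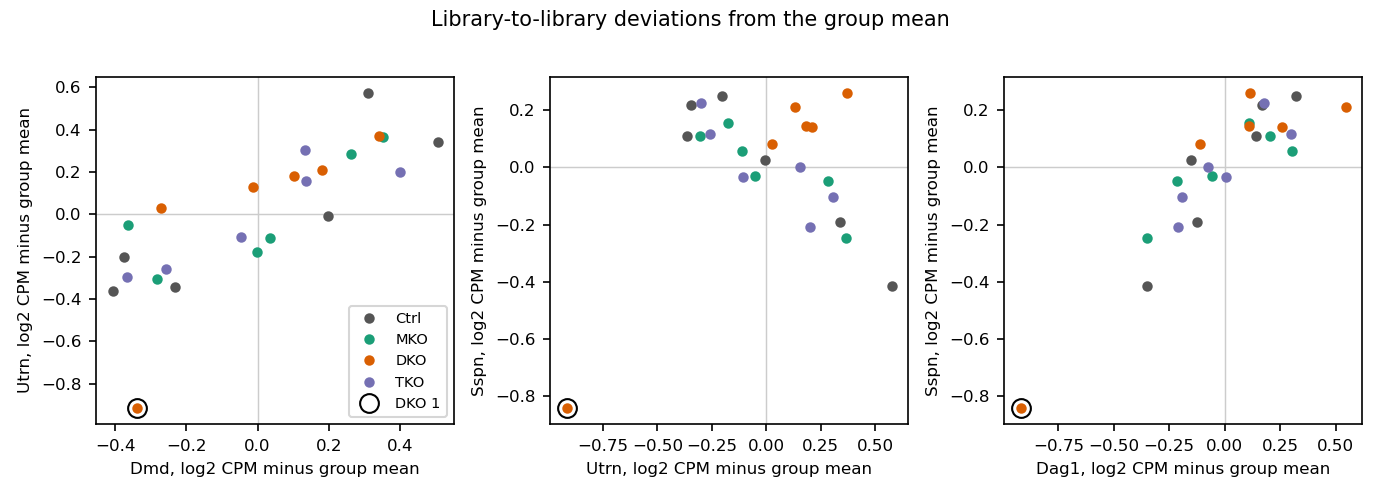
Deviation of each library from its group mean (log2 CPM) for Dmd and Utrn, Utrn and Sspn, and Dag1 and Sspn; colours give the group and the circle marks DKO 1. Dmd and Utrn rise together (r = 0.81), as do Dag1 and Sspn (r = 0.90), while Utrn and Sspn slope downward apart from DKO 1.

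The genes whose log2 CPM most resembled each member over the 24 libraries differed from member to member (highest Pearson r among tested genes, a description over libraries that share depth and groups). For Dmd these were Akap9 (0.82), Ttn (0.81) and Snx29 (0.81), and for Utrn Pxn (0.92), Abcc5 (0.89) and Dgkq (0.88). Dag1 was matched by Zdhhc5 (0.96), Il6st (0.95) and 4933426M11Rik (0.94). Sspn was matched by Phtf2 (0.96), Eif4g2 (0.96) and Ankle2 (0.95), and Sgcd by Zfp106 (0.90) and Rassf3 (0.89). Sgca was closest to Spag7 (0.93) and Atp5s (0.92), which rested in part on DKO 1, since without it the closest gene was Got2 (0.79). Sgcb was closest to Efcab2 (0.84), Ptgr2 (0.83) and Fech (0.81). Sntb1 was closest to Aldh18a1 (0.90), Mical2 (0.87) and Prkag2 (0.85), and without DKO 1 the closest was Shmt1 (0.90).

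The authors' deposited table of DKO over Ctrl gave Sntb1 a log2 fold change of -0.57 with an adjusted p of 0.0379, and their table of DKO over MKO gave -0.58 with 0.000579. For TKO over MKO the authors' deposited table gave -0.54 with an adjusted p of 0.00795, and for TKO over Ctrl -0.53 with 0.0512. For Sgca in DKO over Ctrl the authors' deposited table gave -0.24, beside -0.24 found here without DKO 1 and Ctrl 3 and 0.08 with all libraries. The authors' deposited tables lay closer to a fit of 22 libraries: their log2 fold changes differed from those of DESeq2 here by a median of 0.00173 to 0.00274 without DKO 1 and Ctrl 3, and by 0.002 to 0.111 with all 24. The authors' deposited tables gave an adjusted p above 0.05 for the other 7 members in all 6 comparisons. Of all genes with an adjusted p, 235 of 13047 lay under 0.05 in DKO over Ctrl and 473 of 12803 in DKO over MKO. In TKO the counts were 2177 of 13807 over Ctrl, 1519 of 13238 over DKO and 3021 of 14539 over MKO. For MKO over Ctrl the count was 15 of 13667.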

How the data were processed

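Reads were aligned and counted by the authors with STAR and featureCounts on mm10, and comparisons were made with DESeq2, per the submitters' processing notes, which give no versions. The deposited count table holds whole read counts per gene, not normalized, with a summed exon length (Length) per the file headers. The authors' deposited comparison tables hold, per the file headers, a mean normalized count (baseMean, a signal), a log2 fold change with its standard error, a test statistic (a score) and p-values. The libraries that entered those tables are not stated, and Ctrl 3 and DKO 1 were left out together in 1 setting because those tables lie closer to a fit without both than to one of all 24. RNA was polyadenylated RNA amplified by SMART-Seq v4 and tagged with Nextera XT, per the labels' protocols.

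Counts of all 24 libraries were fitted here with edgeR 4.0.16 (R 4.3.3, TMM scaling, quasi-likelihood test, two-sided). Genes passed filterByExpr with a minimum count of 10, and there was 1 coefficient per group. P-values were adjusted over 12281 genes with Benjamini-Hochberg and called under 0.05. CPM values use TMM library sizes. Log2 CPM had a prior count of 2 for the genes most like each member and for the check of replicate numbers. No prior count was used for the deviations from group means and their correlations. Intervals are at the 95% level. DESeq2 1.42.0 and limma 3.58.1 (voom with quality weights) were alternatives, as were RLE size factors, no filter, a minimum count of 50, only the groups compared, the replicate number as a block, 22 libraries (without Ctrl 3 and DKO 1), sex as a covariate and leaving out each library in turn. Correlations and figures used Python 3.11.15, numpy 2.4.6, scipy 1.17.1, pandas 2.3.3 and matplotlib 3.10.9. Total counts ran from 5.83 M to 17.2 M per library. The fits were tested on simulated data. No pair of libraries within a group agreed within sampling noise, since the chi-square per gene over 60 pairs was at least 6.83.

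The members, the gene lists and the genes named were chosen with earlier results of these data known. Named were all members, up to 4 genes of each list called in TKO against Ctrl and up to 2 called in each other comparison with the smallest adjusted p, the 3 genes most like each member, and the targeted genes. Sntb2, Sgce, Dtnb and Lama2 were named after their values were seen. Some genes that these rules or lists would name are not reported here and were left out of the list counts. The pooled comparison and the correlations without DKO 1 were added after seeing the data.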

Additional observations from a re-analysis of the deposited data

Results flagged for a closer look

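In 3 of 64 groups of 6 libraries examined (8 members and 8 other genes named in the text, in 4 groups), 1 library stood far from the other 5, and each time it was DKO 1. Chance flags about 1 in 20 groups. Utrn was 22.8 CPM in DKO 1 against 43.8 to 55.5 CPM in the other 5 DKO libraries. Sspn was 301.2 CPM against 571.7 to 647.8 CPM. Sgca was 301.8 CPM against 105.7 to 121.5 CPM. DKO 1 thus held less of the long member Utrn and of Sspn and more of Sgca than its group.

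For Dtna, the effect of the guide virus in the Mrtf-mutant genotype minus that in the Cas9 genotype was 0.68 on the log2 scale (edgeR's quasi-likelihood test of the interaction, adjusted p = 0.0346). Among the 8 members no such difference passed the test.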

How the results depend on the processing

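The pooled fall of Sntb1 was the one member call, and it was made in all 8 other settings and in all 24 fits without 1 library. With DESeq2, 1 member was called in DKO against Ctrl and 1 in DKO against MKO, and the genes called were 162 in DKO against Ctrl, 1 in MKO against Ctrl, 243 in DKO against MKO and 191 for the interaction. With voom, 1 member was called in TKO against Ctrl, DKO against Ctrl, TKO against MKO and DKO against MKO, and 2 in the pooled comparison. The genes called by voom were 2644 in TKO against Ctrl, 313 in DKO against Ctrl, 3 in MKO against Ctrl, 1561 in TKO against DKO, 3202 in TKO against MKO, 530 in DKO against MKO, 762 for the interaction and 2545 pooled. With only the groups compared in the fit, 1 member was called in TKO against MKO, and 43 genes were called in DKO against Ctrl, 269 in TKO against DKO, 2581 in TKO against MKO and 48 in DKO against MKO.

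Without Ctrl 3 and DKO 1, 1 member was called in TKO against Ctrl, 1 in TKO against MKO and 2 in the pooled comparison. The genes called were then 2627 in TKO against Ctrl, 1239 in TKO against DKO, 2892 in TKO against MKO, 130 for the interaction and 2091 pooled. With sex as a covariate, 2 members were called in TKO against DKO and 2 in DKO against MKO, and 187 genes were called in DKO against Ctrl, 1233 in TKO against DKO, 366 in DKO against MKO and 99 for the interaction. In TKO against Ctrl, glycosylation genes called were 3 by voom, 2 with only the groups compared and 3 without Ctrl 3 and DKO 1, where matrix ligands called were 5. Other subunits called were 2 with DESeq2 and 2 with no filter on low counts. The cause was not tested.

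Ratios near 0 changed sign. Sspn in MKO was -0.0017 with RLE size factors, -0.0022 with DESeq2, -0.0022 with only the groups compared and -0.0053 without Ctrl 3 and DKO 1. Sntb1 in MKO was -0.0052 with RLE size factors, -0.0058 with DESeq2, -0.0025 with no filter, -0.0059 with only the groups compared and -0.0020 with the replicate block. Utrn in DKO was 0.198 by voom, 0.0083 with the block, 0.0718 without Ctrl 3 and DKO 1 and 0.0876 with sex, and Utrn in MKO was 0.0441 by voom. Sgca in DKO was -0.231 by voom and -0.236 without Ctrl 3 and DKO 1, and Sspn in DKO was 0.0083 and 0.0163 in those settings.

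With 1 library left out, members called ranged from 0 to 1 in DKO against MKO, TKO against Ctrl and TKO against MKO, and from 1 to 2 pooled. Genes called ranged from 55 to 124 in DKO against Ctrl, 53 to 128 in DKO against MKO, 0 to 1 in MKO against Ctrl, 1403 to 2808 in TKO against Ctrl, 495 to 1100 in TKO against DKO, 1184 to 2725 in TKO against MKO and 14 to 585 for the interaction. In TKO against Ctrl, glycosylation genes ranged from 1 to 4 and matrix ligands from 1 to 3. Against Ctrl, ratios ranged from -0.257 to 0.160 for Sgca in DKO, -0.170 to 0.0190 for Sspn in DKO and -0.107 to 0.0978 for Utrn in DKO. In MKO they ranged from -0.0877 to 0.0416 for Sgcd, -0.0841 to 0.0391 for Sntb1, -0.0622 to 0.0572 for Sspn and -0.0972 to 0.116 for Utrn. Of 480 ratios under other settings, 437 kept their direction and side of the threshold, 13 gained a call, 12 lost one and 18 changed sign.

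Whether the replicate numbers pair the libraries was not settled. Of 36 same-numbered pairs 14 correlated over 0.1 (5 of 6 for TKO and Ctrl, 4 of 6 for MKO and Ctrl, 0 of 6 for TKO and DKO). The highest was 0.642 (replicate 2 of MKO and Ctrl). Among the 6 numbers in the other groups, 6 of 24 libraries correlated best with their own number. For Dmd, replicates 1 to 3 lay above replicates 4 to 6 in Ctrl, MKO and TKO, but not in DKO. The standard error of Dmd in TKO against Ctrl was 0.13 with the replicate block and 0.17 without it. With the replicate block the genes called for the interaction were 175, and the members called were 1 pooled and 0 elsewhere. The permutations for pairs of members treat the libraries of a group as exchangeable, whatever their number. The level of Sntb1 in DKO 1 rests on 24 counts.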
